A study of Eriocheir sinensis with 6 samples.

Results

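The distal part of the placed sequence CM024137.1 of the Chinese mitten crab (Eriocheir sinensis) genome holds 2083 of the 85139 accessible regions found by ATAC-seq in inter-molt leg muscle. A region is a merged set of overlapping peaks from any of 3 peak lists, and the part takes every region of CM024137.1 that starts at 18000000 or later, whichever libraries it came from. The remaining 748 regions of this sequence start below 18 Mb. The sequence reaches 31.5 Mb in the files, so the distal part covers 13.5 Mb, which is 42.8% of its length, and holds 73.6% of its 2831 regions. The part was picked for its peak density, so its density and spacing are described without a test.

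The study sampled healthy, wild-type, untreated juvenile crabs in the inter-molt period (stage C, the stage between molts), and froze muscle, of the walking legs by its methods, in liquid nitrogen. There were 3 crabs, and by the study's methods the muscle of each crab was divided between ATAC-seq and RNA-seq, giving 3 libraries of each assay. The replicates are therefore separate animals, and no other stage was analysed here, so the comparisons are between parts of the genome within each crab. The gene tables carry identifiers without gene names, so the labelled tissue could not be checked against muscle markers, and no role can be given for any gene of the distal part.

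In ATAC-seq the transposase Tn5 inserts adapters where DNA is not covered by nucleosomes, and sites of frequent insertion appear as peaks. Accessible sites are known at promoters, where transcription starts, and away from genes, where they include enhancers and insulators. The bases of the regions were not used here, so their composition and repeats were not analysed.

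The distal part held 1489, 1550 and 1381 peaks in crabs 1, 2 and 3, out of 57320, 49574 and 56919 peaks in those libraries. This was 2.60%, 3.13% and 2.43% of all peaks of the crab. The density was 110.5, 115.0 and 102.4 peaks per Mb in the distal part, against 24.6, 21.2 and 29.6 peaks per Mb below 18 Mb. Every crab had more peaks per Mb distally, by 4.46-fold ± 0.983 on average (SD, n = 3). Over all other placed sequences the density was 36.1, 29.5 and 38.1 peaks per Mb, and over the unplaced sequences, which the assembly does not assign to a chromosome, it was 153, 148 and 128 peaks per Mb. By these values the distal part lay between the placed and the unplaced sequences in density. The unplaced length counted only sequences with a peak or gene model, each up to its highest listed position. Their density is therefore an upper value. Crab 2 had the highest density of the 3 crabs in the distal part, and the lowest of the 3 both below 18 Mb and on the other placed sequences.

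The change in density did not fall at 18 Mb. When the sequence was divided at the peak that best separated 2 constant densities by Poisson likelihood, the dividing peak started at 18809073 in crab 1, 18809028 in crab 2 and 18808959 in crab 3. These 3 peaks are members of the same merged region, CM024137.1:18808959-18809785. From this region to the end the density was 115.8, 121.0 and 107.3 peaks per Mb, against 24.7, 21.2 and 29.5 peaks per Mb before it, which is a ratio of 4.68, 5.72 and 3.64. The last peak before it ended 36139, 35970 and 23089 bases upstream in crabs 1, 2 and 3. The region itself was not a strong one, with a fold enrichment (pileup over local background at the summit, as MACS2 reports it) of 2.77, 3.06 and 3.43.

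The first 0.809 Mb of the distal part was therefore sparse. It held 22, 17 and 22 peaks, or 27.2, 21.0 and 27.2 peaks per Mb, close to the values below 18 Mb in the same crabs. In merged regions this stretch had 36 members, at 44.5 regions per Mb, whereas the dense stretch after the step had 2047 members over 12.7 Mb, at 161.5 regions per Mb. Below 18 Mb there were 41.6 regions per Mb. The member nearest to the boundary on the inside, CM024137.1:18002693-18003108, was found in crab 1 alone with a fold enrichment of 3.20. The nearest region outside, CM024137.1:17981390-17981595, was found in crab 3 alone with a fold enrichment of 3.34.

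**Figure D1:**
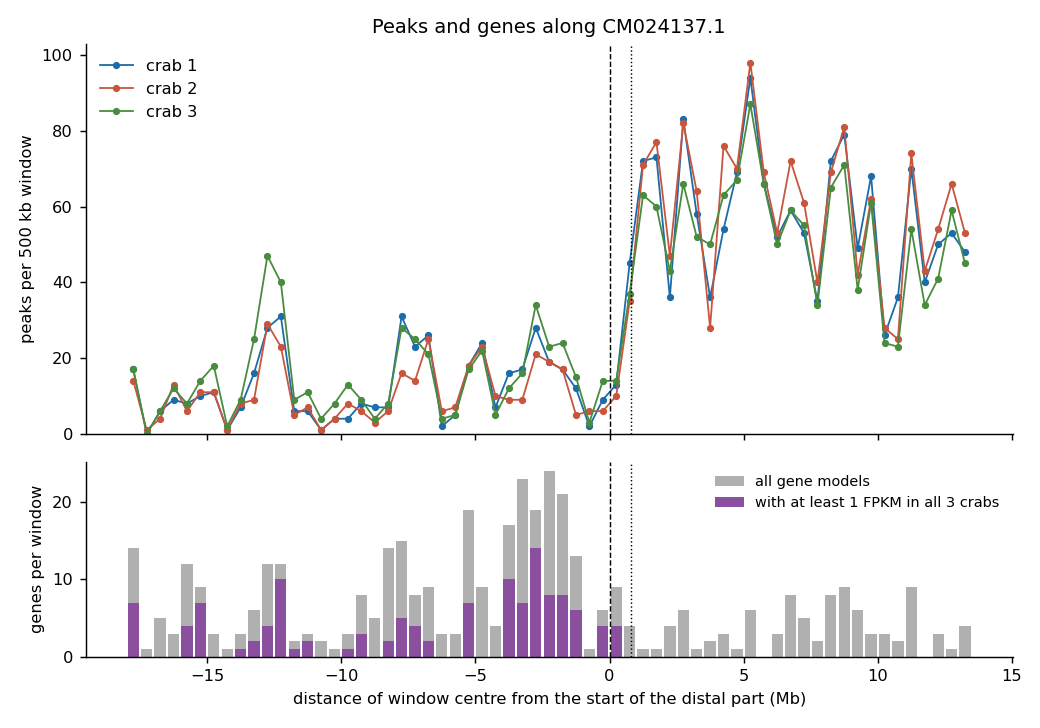
Peaks per 500 kb window in each of the 3 ATAC-seq libraries (upper panel) and gene models per window (lower panel, grey, with those at 1 FPKM or more in all 3 crabs in purple), plotted against distance in Mb from the start of the distal part. The dashed line is the start of the distal part and the dotted line the density step 0.809 Mb further on. Past this step peak counts were high in all 3 crabs. The last purple bar is in the window that begins at 18 Mb, before the step.

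Within the distal part the density varied from window to window, and the crabs shared the pattern. The 27 windows of 500 kb (the last one shorter) held 20 to 120 regions with a median of 84, and 25 of them held at least 50. Below 18 Mb the 36 windows held 1 to 54 regions with a median of 17. Relative to its mean, the count spread less between the distal windows (coefficient of variation 0.287) than between the windows below 18 Mb (0.631). Spearman's rho of the peak counts over the 27 distal windows was 0.936 for crabs 1 and 2, 0.908 for crabs 1 and 3, and 0.891 for crabs 2 and 3. These values describe windows that share their sequence and are not replicates.

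The densest window began at 23.0 Mb and held 120 regions, from 94, 98 and 87 peaks in crabs 1, 2 and 3. The next began at 20.5 Mb with 109 regions (83, 82 and 66 peaks) and at 29.0 Mb with 103 regions (70, 74 and 54 peaks). The sparsest window began at 18 Mb, before the step, with 20 regions (13, 10 and 14 peaks). The next sparsest were neighbours, beginning at 28.0 Mb with 44 regions (26, 28 and 24 peaks) and at 28.5 Mb with 51 regions (36, 25 and 23 peaks), so that peaks thinned in all 3 crabs across 1 Mb inside the dense stretch. Divided at its midpoint, the dense stretch had 176.9 regions per Mb in the part nearer the step and 146.2 regions per Mb in the part nearer the end of the sequence. High density thus held to the end of the sequence, where the last region, CM024137.1:31479095-31480197, was present in all 3 crabs with a fold enrichment of 4.72, 5.85 and 6.80.

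Neighbouring regions were correspondingly close. The gap from one region to the next had a median of 3131 bases in the distal part, against 7939 bases below 18 Mb, 6381 bases on the other placed sequences and 1944 bases on the unplaced sequences. Gaps were taken within a sequence, so sequence ends limit those on the unplaced sequences. The quartiles of distal gaps were 796 and 7428 bases. Gaps under 1 kb made up 28.7% of distal gaps (597), against 18.2% of those below 18 Mb (136). Gaps over 50 kb numbered 10 in the distal part, against 100 below 18 Mb, and the longest was 97672 bases distally, against 587409 bases below 18 Mb.

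The coefficient of variation of the gaps was 1.47 in the distal part and 1.89 below 18 Mb. These values include the change of density along each part, which was not held equal. The longest distal gap, between 18454962 and 18552633, lay before the density step. The next were 75956 bases between 31238052 and 31314007, close to the end of the sequence, and 73657 bases between 21789530 and 21863186. Within single libraries the median distance between the centres of neighbouring peaks was 5168, 4928.5 and 5184.5 bases in the distal part, against 12996, 17088 and 10489 bases below 18 Mb. The 3 crabs differed far less from each other in this distance in the distal part than below 18 Mb. They were also close to each other on the unplaced sequences, with 3002.5, 2971 and 3019.75 bases.

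**Figure D2:**
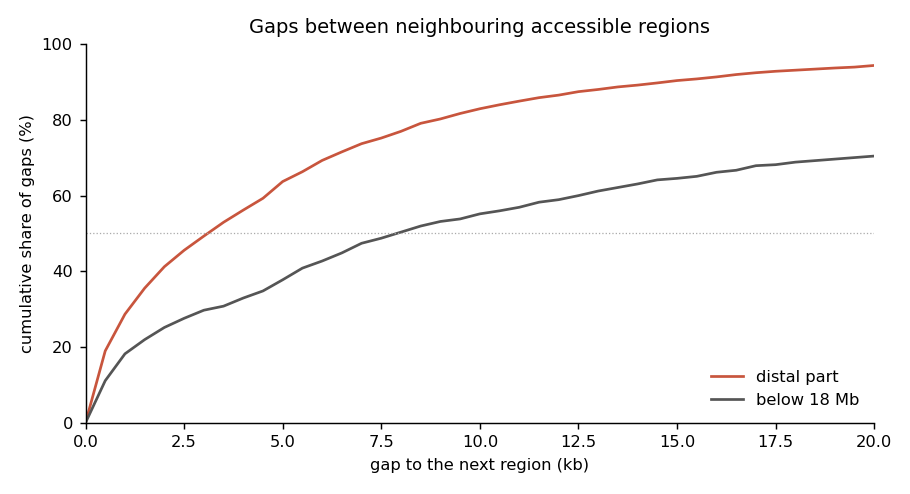
Cumulative share of gaps (%) up to a given length (kb, up to 20 kb) between neighbouring merged regions of the distal part and of the sequence below 18 Mb. The dotted line marks 50%, which the distal curve crosses at about 3131 bases and the curve below 18 Mb at about 7939 bases.

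Distal peaks were wider than those below 18 Mb in each crab. The median width was 396, 354.5 and 375 bases in the distal part, against 341, 296 and 336.5 bases below 18 Mb. The difference of the log2 medians was 0.21 ± 0.05 (SD, n = 3), higher in 3 of 3 crabs, with p = 0.25 in an exact two-sided sign-flip test over crabs. That is the smallest p that 3 crabs allow, so none of the 6 comparisons of this kind could pass 0.05. Peaks with more than 1 summit made up 25.9%, 23.2% and 25.1% of distal peaks, against 21.2%, 15.7% and 20.5% of peaks below 18 Mb. The difference was 5.54 percentage points ± 1.62 (SD, n = 3), again higher in 3 of 3 crabs (exact sign-flip p = 0.25). With only peaks of a −log10 q of 5 or more, the differences shrank to 0.10 (log2) for width and 2.83 points for several summits, still higher in 3 of 3 crabs. Both differences turned when the unplaced sequences, with median widths of 418, 372 and 395 bases and 31.2%, 26.1% and 28.4% of peaks with several summits, took the place of the part below 18 Mb.

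The strength of a typical peak did not separate the 2 parts of the sequence. The median fold enrichment was 3.44, 3.57 and 3.55 in the distal part, against 3.47, 3.43 and 3.62 below 18 Mb. The log2 difference was 0.01 ± 0.04 (SD, n = 3), higher in 1 of 3 crabs (exact sign-flip p = 1), and its sign changed with most of the other settings tried. The upper end was lower in the distal part, where 90% of peaks were under 5.67, 6.09 and 5.79, against 6.35, 6.32 and 7.14 below 18 Mb. The single strongest peaks of the sequence were nevertheless distal, at 28.8, 27.8 and 22.1, against 14.2, 14.4 and 15.3 below 18 Mb. A maximum rises with the number of peaks, which was larger distally, and the other placed sequences reached 46.5, 47.7 and 45.6. A fold enrichment of 10 or more was reached by 25, 30 and 23 distal peaks, against 5, 5 and 20 peaks below 18 Mb. As a share of the peaks this was 1.68%, 1.94% and 1.67% distally, against 1.13%, 1.31% and 3.76% below 18 Mb, so crabs 1 and 2 had the larger share distally and crab 3 below 18 Mb.

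The local background at the summits, a measure of how many fragments lay around a peak, had a median of 6.28, 5.78 and 5.34 fragments in the distal part, against 5.96, 4.68 and 5.43 fragments below 18 Mb. The log2 difference was 0.12 ± 0.17 (SD, n = 3), higher in 2 of 3 crabs (exact sign-flip p = 0.5). The spread between crabs was larger than this difference. Its part in the number of peaks was not tested.

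**Figure D3:**
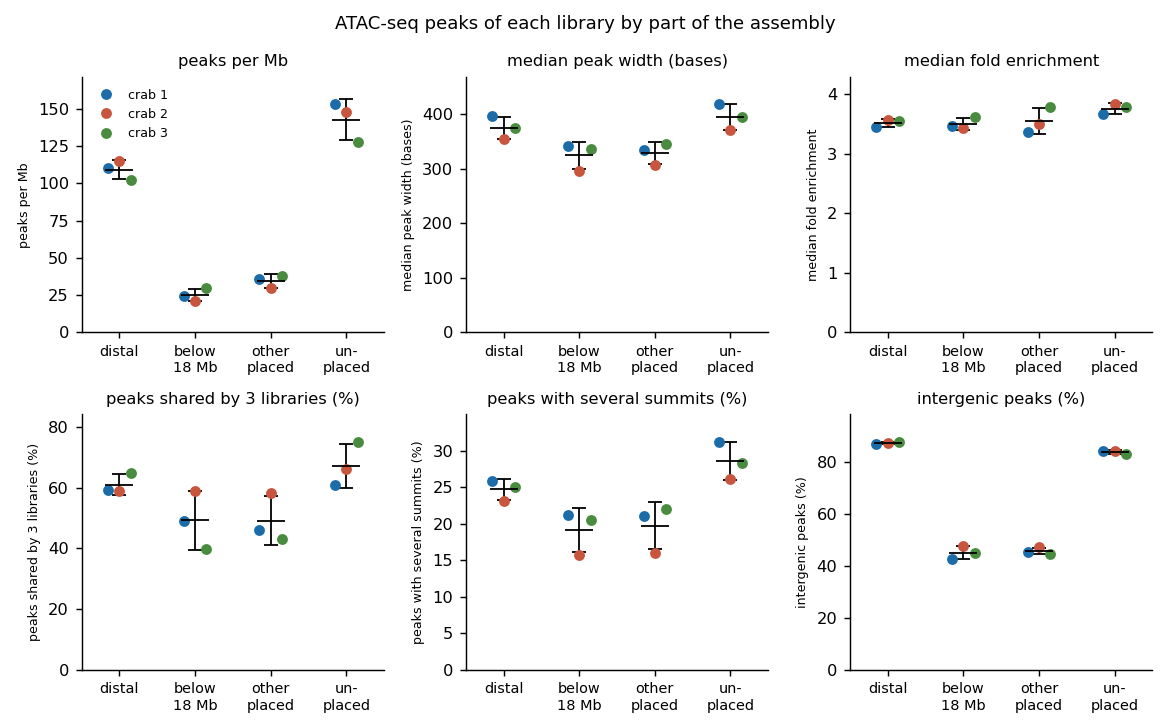
Peaks per Mb, median peak width in bases, median fold enrichment, and the shares (%) of peaks shared by 3 libraries, with several summits and in intergenic sequence, for the distal part, the sequence below 18 Mb, the other placed sequences and the unplaced sequences. Points are the 3 crabs, and the bar with whiskers is their mean ± SD. The distal values lie above those below 18 Mb in all 3 crabs for density, width, share with several summits and intergenic share, and overlap them for fold enrichment.

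Members recurred between crabs more often than regions elsewhere on the placed sequences. Of the 2083 distal regions, 828 (39.8%, 95% Wilson interval 37.7 to 41.9%) had a peak in all 3 crabs, 463 (22.2%) in 2 crabs and 792 (38.0%) in 1 crab. Below 18 Mb 203 of 748 regions (27.1%, 24.1 to 30.4%) had a peak in all 3 crabs, and 392 (52.4%) in 1 crab. These intervals cover counting error only, and the higher density of the distal part was not held equal. The share in all 3 crabs was 27.5% on the other placed sequences and 46.7% on the unplaced sequences.

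Within libraries, 59.2%, 59.0% and 65.0% of the distal peaks of crabs 1, 2 and 3 lay in regions shared by all 3 crabs, against 49.0%, 59.1% and 39.7% of peaks below 18 Mb. The difference was 11.8 percentage points ± 12.7 (SD, n = 3), higher in 2 of 3 crabs (exact sign-flip p = 0.5). It was 10.2 points in crab 1, -0.02 points in crab 2 and 25.3 points in crab 3, so that crab 2 showed almost no difference. With only peaks of a −log10 q of 5 or more the mean was 3.48 points ± 18.6 (SD, n = 3), with crab 2 at -15.7 points. With sharing counted between 2 crabs at a time, the mean was 12.4 points without crab 1, 6.56 points without crab 2 and 13.4 points without crab 3.

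The regions found in 1 crab came from different crabs in the 2 parts of the sequence. In the distal part 288, 300 and 204 regions were found in crab 1, 2 or 3 alone, against 112, 96 and 184 below 18 Mb. Crab 3 had the fewest private regions distally and the most below 18 Mb. Among regions of exactly 2 crabs, 188 distal ones joined crabs 1 and 2, 130 joined crabs 1 and 3, and 145 joined crabs 2 and 3. Below 18 Mb those numbers were 18, 94 and 41. On the other placed sequences crabs 1 and 3 likewise shared most (2655, 7038 and 3228), and on the unplaced sequences crabs 1 and 2 did (2080, 1083 and 909). The pair that shared most was thus crabs 1 and 2 in the distal part and on the unplaced sequences, while the order of the remaining pairs differed between them.

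In regions present in all 3 crabs, fold enrichment was more even between crabs distally than below 18 Mb. Over the distal ones the median log2 ratio of crab 2 to crab 3 was 0.03 and that of crab 1 to crab 3 was -0.01, against -0.42 and -0.29 below 18 Mb. The median SD of log2 fold enrichment between crabs was 0.22 in the distal part and 0.31 below 18 Mb. On the unplaced sequences the 2 ratios were 0.05 and 0.04 and this SD was 0.20, so the evenness was not particular to the distal part. Over these 828 distal regions Spearman's rho between crabs was 0.724 (crabs 1 and 2), 0.691 (crabs 1 and 3) and 0.744 (crabs 2 and 3). The median fold enrichment of regions in all 3 crabs was 4.04 in the distal part and 4.59 below 18 Mb.

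Recurrent members were stronger. The median fold enrichment of distal regions was 2.95 in those of 1 crab, 3.31 in those of 2 crabs and 4.04 in those of 3 crabs. The median width of these regions was 262, 395 and 699.5 bases, which merging itself raises where peaks of several crabs are joined. Single distal peaks, before merging, had a median width of 497, 450 and 464 bases in crabs 1, 2 and 3 where the region was in all 3 crabs, against 280.5, 250.5 and 261.5 bases where it was in that crab alone. Of the 703 distal regions with a mean fold enrichment under 3, 18.8% were in all 3 crabs, against 8.47% of such regions below 18 Mb. From 3 to 4 the shares were 35.8% distally and 16.7% below 18 Mb, and from 4 to 6 they were 61.8% and 45.9%. From 6 to 10 the shares were 91.0% of 100 distal regions and 82.5% of 57 regions below 18 Mb, and at 10 or more 95.5% of 22 distal regions and 100% of 9 regions below 18 Mb. In the 4 classes under 10 the distal share was the higher one. On the unplaced sequences the shares of the 3 lowest classes were 23.9%, 37.1% and 61.5%, so the distal part did not stand above those sequences in the same way.

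The 22 members with a mean fold enrichment of 10 or more all lay past the density step, and 21 of them were found in all 3 crabs. The strongest, CM024137.1:23411217-23411665, was 449 bases wide and reached 25, 27.8 and 19.6 in crabs 1, 2 and 3, a mean of 24.1 ± 4.17 (SD, n = 3). It lay 87962 bases from the nearest gene start and in the densest window. The second widest member began only 9237 bases further on. That one, CM024137.1:23420903-23423623, spanned 2721 bases but was weak, with 2.57, 2.74 and 2.96 in the 3 crabs.

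The next strongest, CM024137.1:22335389-22336122, reached 20.4, 25.96 and 22.1, with a mean of 22.8 ± 2.86 (SD, n = 3), and was 6729 bases from a gene start. CM024137.1:19748950-19749406 reached 28.8, 22.0 and 17.6, a mean of 22.8 ± 5.66 (SD, n = 3), at 216790 bases from the nearest gene start. These 3 regions cannot be ranked, because their means differ by less than the spread between crabs. The fourth, CM024137.1:30081999-30083177, had 21.6, 12.6 and 18.7.

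Of the 8 strongest, the crabs disagreed most at CM024137.1:30897472-30898164, where crab 1 had 8.51 and crabs 2 and 3 had 21.5 and 19.01. They were nearly equal at CM024137.1:19914640-19915610, with 15.0, 14.6 and 14.9, a mean of 14.9 ± 0.186 (SD, n = 3), and this region lay 311066 bases from any gene start. CM024137.1:26646466-26646978 had 12.0, 17.7 and 15.7 and was the one of the 8 strongest that lay in a gene body. The last of the 8, CM024137.1:20502693-20503239, had 15.7, 13.2 and 11.9. None of the 8 lay at a promoter. The strongest region found in 1 crab, CM024137.1:30161762-30162059 in crab 2, had a fold enrichment of 11.7, and was chosen after its values were seen.

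The widest member, CM024137.1:18990759-18993551, spanned 2793 bases shortly after the density step. Its fold enrichment was 5.96, 4.96 and 5.71, and it lay 133559 bases from the nearest gene start. The third widest, CM024137.1:30280066-30282635, spanned 2570 bases with 3.13, 3.28 and 3.31. All 3 of the widest members were found in every crab and were intergenic. The median width of all members was 410 bases, against 325.5 bases below 18 Mb, and together they covered 8.23% of the distal part, against 1.83% of the sequence below 18 Mb.

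Few members were near a listed gene model. Regions were placed at a promoter when they met the 2 kb on either side of a gene start, otherwise in a gene body, otherwise between genes. Of the 2083 distal regions 94 (4.51%) met a promoter, 160 (7.68%) a gene body and 1829 (87.8%) were intergenic. Below 18 Mb 175 of 748 (23.4%) met a promoter, 230 a gene body and 343 (45.9%) were intergenic. On the other placed sequences 46.9% of regions were intergenic. On the unplaced sequences 7.79% met a promoter, 8.15% a gene body and 84.1% were intergenic, so a high intergenic share was not particular to the distal part. The crabs were alike, with 87.1%, 87.4% and 87.8% of distal peaks intergenic, against 42.7%, 47.8% and 45.1% below 18 Mb. The median distance from a region to a gene start was 45660 bases in the distal part, against 12035 bases below 18 Mb, 11639.5 bases on the other placed sequences and 11919 bases on the unplaced ones. Starts of listed gene models were thus far from the members. The value for the unplaced sequences covers only regions on sequences with a gene model, and the sequence ends limit it. It is therefore not comparable with the distal value.

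The distal part is short of listed gene models. It carries 104 gene models, 80 from the EVM annotation and 24 loci added by the authors (added loci, named here by position), which is 24.9% of the 417 of the sequence. That is 7.72 genes per Mb, against 17.4 genes per Mb below 18 Mb (313 genes). These counts cover listed models only, with 33.2% of the EVM numbers of the distal range listed and 55.6% of those below 18 Mb. How far unlisted models would change the densities was not analysed. Gene spans took up 12.3% of the sparse first stretch and 7.18% of the dense one, against 31.0% below 18 Mb. Distal gene models were also shorter, with a median length of 673.5 bases against 1194 bases below 18 Mb, and a median span of 2131 bases against 6296 bases.

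Over the 27 distal windows the number of regions had little relation to the number of genes (Spearman's rho 0.134), whereas over the 36 windows below 18 Mb it went with it (0.693). The 2 windows without a gene, at 23.5 Mb and 29.5 Mb, held 88 and 62 regions. Window counts share depth and sequence, and rho is given as a description.

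**Figure D4:**
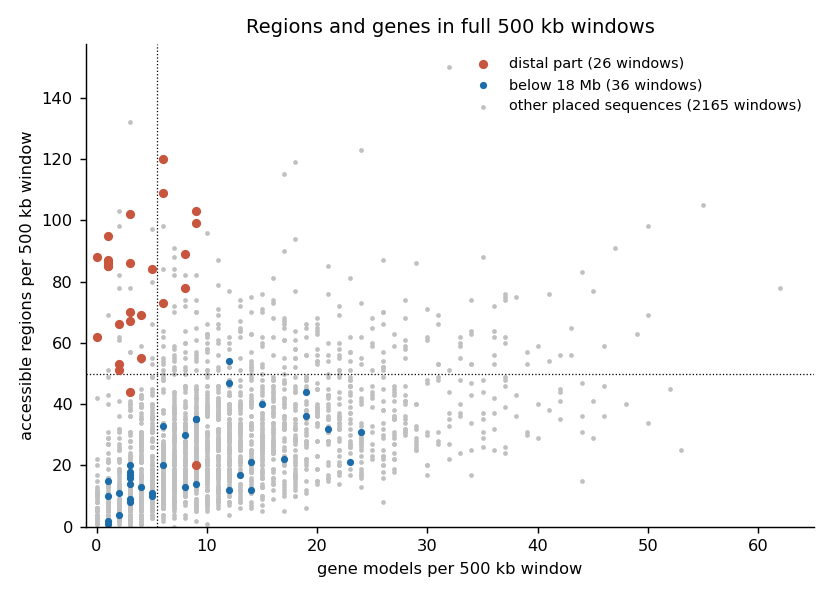
Accessible regions against gene models in full 500 kb windows of the placed sequences, with the distal part in red, the sequence below 18 Mb in blue and the other placed sequences in grey. The dotted lines separate windows with at least 50 regions and windows with at most 5 genes, and 17 of the 26 distal windows fall in the upper left field, where 20 of 2165 windows of the other placed sequences lie.

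Dense windows with few genes were uncommon on other placed sequences. Of the 26 full distal windows, 24 (92.3%) held at least 50 regions, and 17 of these had at most 5 genes. On the other placed sequences 269 of 2165 windows (12.4%) held at least 50 regions, and 20 of these had at most 5 genes. The longest unbroken run of windows with at least 50 regions on any placed sequence was in the distal part, 19 windows or 9.5 Mb from 18500001 to 28000000. The limits of 50 regions and 5 genes were chosen with the data known, and the windows were not tested.

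Almost no transcripts of the distal genes were found. Of 6772294, 7391379 and 7920094 gene reads in the RNA-seq libraries of crabs 1, 2 and 3, 449, 554 and 213 came from the distal genes, against 28667, 35441 and 30094 from the genes below 18 Mb. The distal share was 0.00663%, 0.00750% and 0.00269% of the library. In all, 84 of the 104 distal genes (80.8%) had no read in any crab, and below 18 Mb 84 of 313 genes (26.8%) had none. Bulk RNA cannot tell fewer cells with a transcript from less transcript per cell.

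An FPKM of 1 or more was reached by 3.85%, 4.81% and 6.73% of distal genes, against 48.6%, 48.6% and 44.1% of genes below 18 Mb. The difference was -41.9 percentage points ± 3.999 (SD, n = 3), lower in 3 of 3 crabs (exact sign-flip p = 0.25). It stayed negative under every setting tried, with values from -52.3 to -10.9, but the unplaced sequences were not tried as the reference. A count of 0 reads allows up to 3 reads. For a silent distal gene of median length this limit was 0.641, 0.478 and 1.16 FPKM in crabs 1, 2 and 3. In crab 3 a count of 0 at such a gene therefore does not exclude a level near 1 FPKM.

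Expression fell away inside the sparse stretch, before the density step. The last gene at 1 FPKM or more in every crab, evm.TU.CM024137.1.479, ended at 18248439. Between it and the step no gene had a read except the added locus at 18695210-18698592, with 0, 0 and 2 reads. The 12 genes before the density step had 442, 542 and 202 reads, and 4 of the 12 were at 1 FPKM or more in every crab. The 92 genes of the dense stretch had 7, 12 and 11 reads in all, from 3, 7 and 8 genes, and 80 of them had no read. None of the 92 reached 1 FPKM in all 3 crabs and 2 did in any crab, against 119 of 313 genes below 18 Mb that did in all 3. A long stretch without such genes was also found where regions were sparser. On CM024099.1 no gene starting between 11500001 and 23500000 reached 1 FPKM in all 3 crabs. The 500 kb windows there held 14 to 45 regions each. That stretch was picked after its values were seen.

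**Figure D5:**
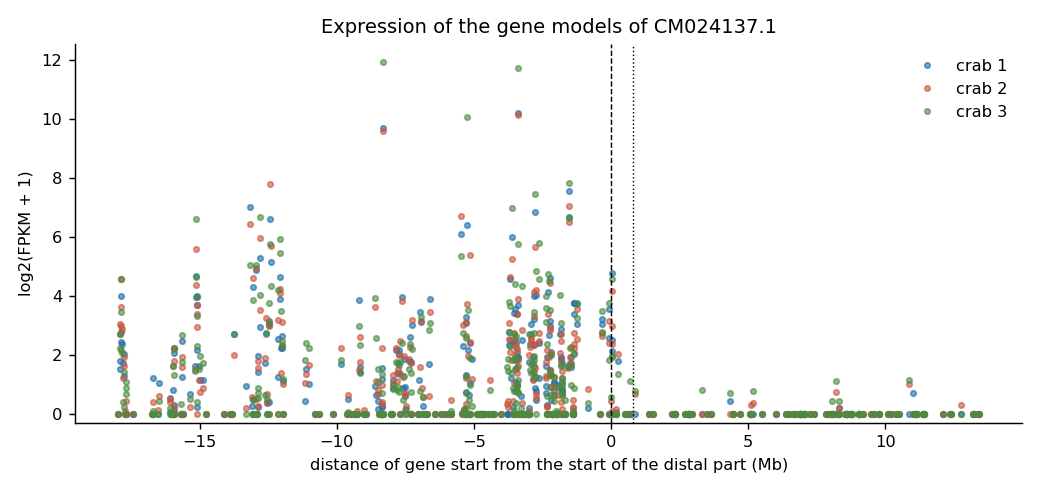
Expression of every gene model of CM024137.1 as log2(FPKM + 1) in each of the 3 RNA-seq libraries, against the distance of the gene start in Mb from the start of the distal part. The dashed line is the start of the distal part and the dotted line the density step 0.809 Mb further on. Past the dotted line no gene reached 1 FPKM in all 3 crabs.

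The 4 expressed genes stood close together at the start of the distal part and took 98.2%, 95.8% and 92.0% of its reads. The highest was evm.TU.CM024137.1.474 (CM024137.1:18041494-18079606, minus strand), with 26.1, 17.003 and 22.7 FPKM from 281, 245 and 135 reads in crabs 1, 2 and 3. Its promoter had a peak in every crab, with a fold enrichment of 7.50, 5.96 and 11.5. This was well above the median distal peak in all 3 crabs.

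The genes evm.TU.CM024137.1.470 (18016660-18025125, minus strand) and evm.TU.CM024137.1.471 (18025434-18030754, plus strand) start 309 bases apart and run away from each other. evm.TU.CM024137.1.470 had 4.72, 6.86 and 2.88 FPKM (77, 150 and 26 reads) and evm.TU.CM024137.1.471 had 3.42, 4.17 and 2.79 FPKM (60, 98 and 27 reads). One peak met the 2 kb around both gene starts, at 2.47, 3.52 and 3.04, but did not reach the span of evm.TU.CM024137.1.471. Both genes had the highest level in crab 2 and the lowest in crab 3. With neighbours this close, and strand use in counting not given in the sources used here, reads of the pair could be divided wrongly.

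The fourth, evm.TU.CM024137.1.479 (18238681-18248439, plus strand), had 2.51, 3.09 and 1.58 FPKM from 23, 38 and 8 reads, with a promoter peak at 3.90, 2.69 and 4.79. The authors' FPKM used library sizes 1.04, 1.27 and 0.491 times the recovered totals. On the plain totals this gene had 2.60, 3.94 and 0.774 FPKM and so fell under 1 FPKM in crab 3, and evm.TU.CM024137.1.474 had 27.1, 21.7 and 11.1 FPKM. The order of the crabs at evm.TU.CM024137.1.474 therefore depends on the scaling, with crab 2 lowest in the deposited values and crab 3 lowest on plain totals.

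All other distal genes together had 8, 23 and 17 reads. The most were at evm.TU.CM024137.1.469 (18010684-18012950), the first gene of the part, with 0, 7 and 4 reads, or 0, 0.350 and 0.485 FPKM, and no promoter peak in any crab. Of the genes in the dense stretch, the added locus at 26190585-26217340 (minus strand) had 0, 4 and 3 reads, or 0, 0.655 and 1.19 FPKM. It was also the one with a promoter peak in all 3 crabs among the dense-stretch genes with a read, at 3.16, 2.61 and 2.59, and it had 6 peaks in its body in each crab. The added locus at 28871523-28874803 had 0, 2 and 1 reads, or 0, 1.02 and 1.24 FPKM, and no promoter peak.

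The remaining genes with a read gave 5 reads or fewer in any crab. The added locus at 29016727-29017844 had 5, 0 and 0 reads, and evm.TU.CM024137.1.478 had 1, 3 and 0. The added loci at 18857200-18865323 and 18695210-18698592 had 0, 2 and 1 reads and 0, 0 and 2 reads, and evm.TU.CM024137.1.603 had 0, 0 and 2. Another 8 genes had at most 1 read in each crab, evm.TU.CM024137.1.473, evm.TU.CM024137.1.532, evm.TU.CM024137.1.608, evm.TU.CM024137.1.610 and evm.TU.CM024137.1.701 and the added loci at 21306408-21363899, 23102191-23105145 and 23190570-23251821. Differences between crabs at these genes rest on single reads. The nearest gene outside, an added locus at 17928702-17934154, had no read and no promoter peak in any crab.

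Some genes with almost no reads nonetheless spanned many peaks. The added locus at 23190570-23251821 spans 61252 bases and had 12, 14 and 12 peaks in its body with 0, 1 and 1 reads. The one at 21306408-21363899, with a span of 57492 bases, had 6, 10 and 6 peaks with 0, 0 and 1 reads. Among genes without a read, the widest was the added locus at 26770254-26866454 with a span of 96201 bases, 8, 7 and 9 peaks in its body and a promoter peak at 4.14, 4.97 and 4.98. The next, evm.TU.CM024137.1.585, had a span of 74637 bases, 11, 15 and 9 body peaks and a promoter peak at 2.45, 3.36 and 2.83. These last 2 genes were picked after their values were seen.

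Open promoters without reads were common in the distal part. A peak met the promoter in all 3 crabs at 45 of 104 distal genes (43.3%), against 69 of 313 genes below 18 Mb (22.0%). Among genes without a read it did so at 40 of 84 in the distal part (47.6%), against 7 of 84 below 18 Mb (8.33%). Peaks are also denser distally, and 24.6% of all distal positions had a peak of each crab within 2 kb, against 4.89% of positions below 18 Mb. Silent distal genes were thus above the level of their surroundings by 1.94-fold, and silent genes below 18 Mb by 1.71-fold. The latter value rests on 7 genes. In the former, neighbours that share a promoter peak, such as evm.TU.CM024137.1.634 and evm.TU.CM024137.1.635, were counted separately. Over all genes, with or without reads, the ratio was 1.76 in the distal part and 4.51 below 18 Mb. At the 4 expressed distal genes the promoter had a peak in all 3 crabs, and below 18 Mb it did at 40 of the 119 expressed genes.

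The promoter peaks of the 40 silent genes were of ordinary strength, with a median of 4.22 for the mean over crabs and 17 of them under 4. The strongest, picked after their values were seen, was at evm.TU.CM024137.1.573 (24876092-24876658, minus strand) and the neighbouring added locus (24876834-24877049, minus strand), where a shared peak reached 14.9, 8.68 and 16.7, a mean of 13.4 ± 4.19 (SD, n = 3). The added locus at 29106274-29126338 had a promoter peak at 11.7, 11.3 and 7.86, and 6, 6 and 4 peaks in its body. evm.TU.CM024137.1.617 (26579815-26580884) had 7.96, 6.77 and 8.79 and evm.TU.CM024137.1.656 (28384330-28385079) had 7.95, 6.50 and 7.44. The promoter of evm.TU.CM024137.1.474, the highest expressed distal gene, with 7.50, 5.96 and 11.5, lay within the range of these silent genes.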

How the data were processed

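Muscle of 3 crabs was measured in 3 ATAC-seq and 3 RNA-seq libraries, grouped and numbered by the labels. In the study, ATAC-seq reads were aligned with BWA and peaks were found with MACS2, separately for each library. A peak's fold enrichment (the ratio of its pileup to the local background), its −log10 p and −log10 q and its score (10 times −log10 q) are the authors' deposited values, and no listed −log10 q was below 1.30. RNA-seq reads were aligned with HISAT2 2.0.5 and counted with featureCounts 1.5.0-p3, per the submitters' processing notes. By the study's methods, which describe the molt-period libraries of the same project, alignments of low mapping quality were removed in both assays and reads aligned to several places were left out of the gene counts. The expression values are the authors' deposited FPKM. No source used here says whether fragments were shifted for Tn5.

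The members and lists were chosen with earlier results of these data known. Peaks from different libraries that shared at least 1 base were merged, starts were counted from 1, and peaks with more than 1 summit entered once, at the highest. Positions are on the assembly of the deposited files, and a sequence's length is its highest position there. Read totals of the ATAC-seq libraries are not given, and pileup and background were solved from fold enrichment and −log10 p (tolerance 0.001) at 99.9%, 99.8% and 99.9% of summits, with lowest backgrounds of 3.94, 3.44 and 3.49 fragments. Each deposited FPKM times gene length was a whole multiple of 1 step per library, within 1% of the gene's reads for 100% of the 28671 values (largest deviation 0.015 reads), which gave the reads per gene, and 3 reads at 1 kb equal 0.427, 0.319 and 0.772 FPKM. No count model was fitted.

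Each library gave 1 value for the distal part and 1 for the sequence below 18 Mb. Their difference was tested over 3 crabs by an exact two-sided sign-flip test (smallest p 0.25), for 6 comparisons. Peaks, regions and genes are not replicates. The RefSeq table of the species matched 0 gene identifiers. The text names the 20 genes with the highest mean FPKM and the nearest gene outside, the 8 strongest regions found in all 3 crabs, the 3 widest, the first, the last and the nearest outside, the ends of the 3 longest gaps, and the 3 densest and 3 sparsest windows. Any other named item was added after its values were seen. No column of the tables was left unmapped. The functions were tested on simulated data. Python 3.11.15, numpy 2.4.6, pandas 2.3.3, scipy 1.17.1 and matplotlib 3.10.9 were used.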

Additional observations from a re-analysis of the deposited data

How the results depend on the processing

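Each of the 6 comparisons was recomputed under other settings, 72 in all, and 57 kept the direction of the reported value. The setting with no replicate block changed only the test. Its direction was thus fixed in advance for each comparison, and it is counted among the 57. The comparison of genes at 1 FPKM was not made against the unplaced sequences, where all the others reversed. No call could be gained or lost, since 3 crabs allow no p below 0.25. Width reversed once, at -0.074 (log2) against the unplaced sequences, and there the shared share (-6.28 points), the share with several summits (-3.86 points) and the local background (-0.077) reversed too. The background also reversed, to -0.15, with only peaks whose −log10 q was 5 or more, and fell to 0.066 with the part starting at 17 Mb and 0.060 with equal peak numbers. The fold enrichment difference, near 0, reversed to -0.091 with that threshold, -0.017 with the part starting at 17 Mb, -0.017 at 19 Mb, -0.012 against other placed sequences, -0.096 against unplaced ones, -0.049 with every summit counted and -0.061 as a mean of log2. At the density step it was -0.017, and with an equal number of peaks per library (49574) -0.015, both chosen after seeing the data. The causes were not tested. Leaving out each crab gave 0.19 to 0.24 for width, -0.019 to 0.022 for fold enrichment, 6.56 to 13.4 points for the shared share, 4.601 to 6.03 points for several summits, 0.03 (without crab 2) to 0.19 (without crab 3) for the background and -44.2 to -40.6 points for genes at 1 FPKM. With no replicate block, by exact permutation of 3 against 3 values (smallest p 0.1), the differences were the same (0.21 for width, -41.9 points for genes), with p = 0.1 for width, several summits and genes.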

Other observations

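One other placed sequence held a long dense run. The 9.5 Mb run of the distal part had 1592 regions, or 167.6 per Mb, and the run on CM024130.1, 12 windows in a row (6 Mb, 5000001 to 11000000) with at least 50 regions each, had 935 regions, or 155.8 per Mb. In crabs 1, 2 and 3 the distal run held 1153, 1197 and 1087 peaks, against 764, 613 and 489 in the run on CM024130.1. The median fold enrichment was 3.46, 3.60 and 3.57 in the distal run, against 3.33, 3.42 and 3.34 on CM024130.1, and the median width was 401, 364 and 375 bases, against 408, 353 and 369 bases. Of the regions, 41.9% were in all 3 crabs in the distal run, against 32.7% on CM024130.1. The distal run had 73 genes, or 7.68 per Mb, against 91 genes, or 15.2 per Mb, on CM024130.1, and neither had a gene at 1 FPKM or more in all 3 crabs. No read was found for 63 of the 73 genes (86.3%) of the distal run, against 68 of the 91 (74.7%) on CM024130.1. The run on CM024130.1 was picked from the data and was not tested.

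The numbers in the names of the EVM gene models run along the sequence, from 469 to 709 in the distal part and from 1 to 464 below 18 Mb. The table lists 33.2% of the 241 numbers of the distal range, against 55.6% of the 464 numbers below 18 Mb. Models of the distal part that are missing from the table were not analysed here.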
